A study of Homo sapiens with 6 samples.

Results

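Small nucleolar RNAs (snoRNAs) and the long transcripts that carry them were examined in bulk RNA-seq of MDA-MB-231 cells, an established mesenchymal line from a triple-negative human breast cancer. The members were every gene whose symbol begins with SNORA or SNORD, every SNHG gene with a number (small nucleolar RNA host gene), GAS5 and EPB41L4A-AS1. They were chosen by symbol, not by their values, and come to 558 of the 62703 genes counted: 214 SNORA entries, 314 SNORD entries and 30 host genes. Because several copies can carry 1 symbol, the 528 snoRNA entries have 448 distinct symbols. Cells with a control short hairpin RNA (shControl, 3 libraries) were compared with cells carrying hairpin RNA against RNF20 (shRNF20, 3 libraries), an E3 ligase that ubiquitinates histone H2B. Both groups carry a hairpin, and the labels give neither the number of hairpin sequences nor whether the cells were pools or clones.

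SnoRNAs guide the chemical modification of ribosomal and spliceosomal RNA. Box C/D snoRNAs (SNORD) bind fibrillarin and direct ribose methylation, whereas box H/ACA snoRNAs (SNORA) bind dyskerin and direct pseudouridylation, and a few, such as U3 and U17, serve the cleavage of pre-ribosomal RNA instead. Most human snoRNAs lie in introns of a host gene and are trimmed out of the debranched intron after splicing. Some hosts encode ribosomal or other proteins. Others, the SNHG genes and GAS5 among them, make spliced transcripts without a long reading frame, several of which are degraded by nonsense-mediated decay on ribosomes.

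RNF20 had 1707, 1481 and 1362 counts in shControl replicates 1, 2 and 3 and 366, 269 and 315 in the shRNF20 replicates, in the order that is kept throughout. That is 58.1 ± 0.34 against 12.5 ± 1.52 CPM (counts per 1e6 gene counts; SD, n = 3). Gene counts totalled 21988826 to 29685306 per library. The markers of the cell line were present, but not all at the same level in both groups. VIM had 15519 to 18034 counts in shControl and 10260 to 13612 in shRNF20, without overlap. CD44 had 18075 to 28342 against 7653 to 10373, also without overlap, whereas the counts of EGFR, AXL and CAV1 overlapped. Markers of other cell types were not all near 0, and several differed between the groups without overlap. PECAM1, an endothelial gene, had 91 to 174 counts in shControl and 16 or 17 in shRNF20, epithelial CDH1 357 to 664 against 143 to 199, and leukocyte PTPRC 12 to 24 against 7 to 9. Higher in shRNF20 were CD14, a monocyte gene (24 to 50 against 74 to 84 counts), and COL1A1, a fibroblast collagen (326 to 374 against 689 to 852). DCN (1 to 14 counts) overlapped and CD3E was at 0 or 1. The part of these differences in the values below was not tested. ESR1, at 0 to 5 counts in shControl and 33 to 39 in shRNF20, was low in both groups. ERBB2, which encodes HER2, was not absent, at 2313 to 3946 counts.

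SnoRNA entries took up few reads, and took up more of them in the RNF20 knockdown. The 528 entries together held 273, 177 and 216 counts in shControl and 1016, 858 and 1054 in shRNF20. In CPM that is 9.20, 7.004 and 9.08 against 39.1, 39.0 and 37.3, or 8.43 ± 1.23 against 38.5 ± 1.02 (SD, n = 3). The groups did not overlap, and the shRNF20 mean was 4.56 times the shControl mean. Both classes contributed. The SNORA entries went from 3.06 ± 0.53 to 14.9 ± 1.13 CPM and the SNORD entries from 5.37 ± 1.07 to 23.6 ± 0.18. In bulk RNA, more of a transcript per cell and more cells that make it cannot be told apart.

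The 30 host genes showed no such shift as a group. Their summed counts were 21889, 21567 and 18210 in shControl and 20512, 17146 and 21225 in shRNF20, which is 785 ± 60.6 against 773 ± 19.8 CPM (SD, n = 3), and the groups overlapped. For every 100 host counts there were therefore 1.25, 0.821 and 1.19 snoRNA counts in shControl and 4.95, 5.004 and 4.97 in shRNF20. Within the shRNF20 group this proportion was nearly the same in each library. The proportion sets all 528 entries against 30 hosts that hold only 6 of the 64 entries with 10 or more counts. It is therefore not a yield of snoRNA per host transcript.

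**Figure D1:**
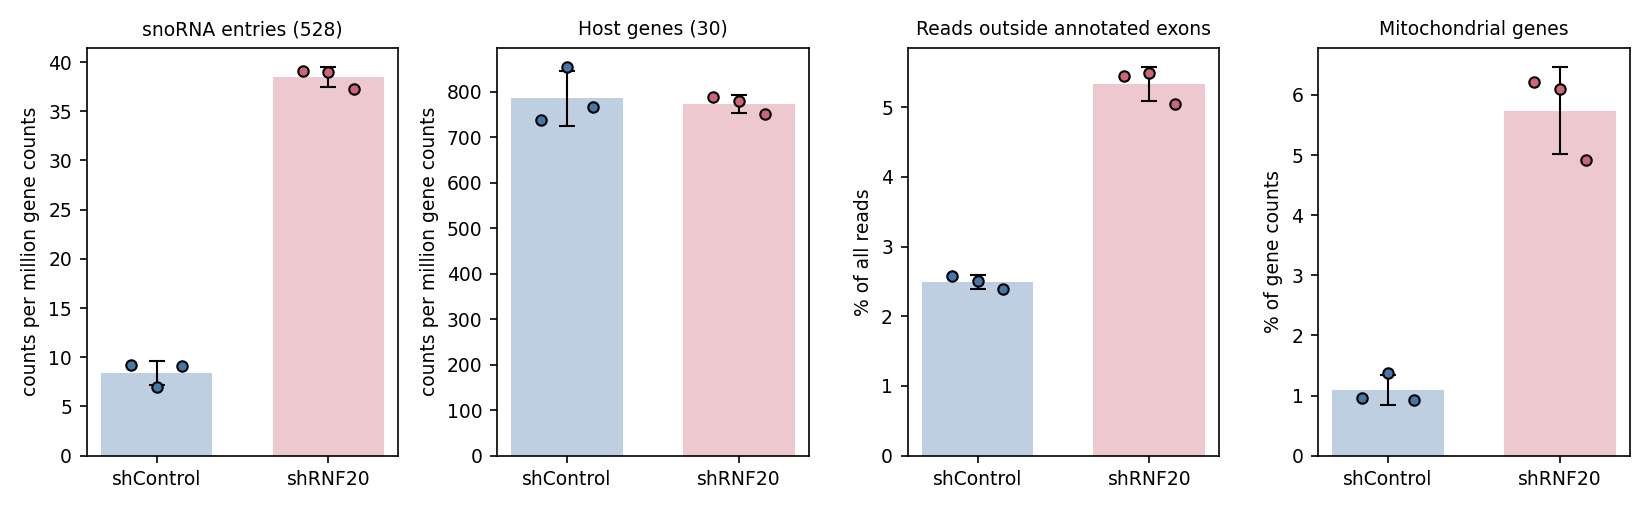
CPM of the 528 snoRNA entries and in the 30 host genes, reads outside annotated exons as a percentage of all reads, and mitochondrial genes as a percentage of gene counts. Points are libraries, bars are means and error bars are SD (n = 3 per group), and the groups are separate in each panel except that of the host genes, where shControl (785 ± 60.6) and shRNF20 (773 ± 19.8) overlap.

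Other measures of the libraries moved the same way, and their part in the snoRNA counts was not tested. Reads that mapped outside annotated exons made up 2.58%, 2.51% and 2.39% of all reads in shControl and 5.46%, 5.49% and 5.05% in shRNF20. Mitochondrial genes held 0.966%, 1.38% and 0.934% of gene counts against 6.22%, 6.09% and 4.91%, and with these genes left out of the total the snoRNA ratio was 4.79. The other RNA classes that were summed, chosen after the snoRNA values were known, were also higher. Further small RNA classes of the annotation were not summed. Genes annotated as small nuclear RNA went from a mean of 14.98 to 26.1 CPM and microRNA genes from 19.1 to 42.8. The scaRNAs, guides for spliceosomal RNA in Cajal bodies and close relatives of snoRNAs, held 2, 1 and 8 counts in shControl and 30, 26 and 31 in shRNF20. Genes annotated as lying within introns of other genes went from 179 to 310 CPM.

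Detection was the first thing that limited the snoRNA data. Of the 528 entries, 405 had no read in any library, 59 had 1 to 9 counts over the 6 libraries and 64 had 10 or more, namely 30 SNORA and 34 SNORD entries. A count of 0 over all 154996744 gene counts still allows up to 0.0194 CPM (3 counts), which covers counting error only. The number of entries with at least 1 read was 61, 49 and 54 in shControl and 89, 88 and 89 in shRNF20. The 59 sparse entries summed to 62 counts in shControl and 144 in shRNF20. At the edge of the minimum, 6 entries stood at exactly 10 counts, among them SNORD88A with 2 against 8, and 9 stood at 8 or 9, among them SNORA22 with 1 against 8 and SNORA16B with 5 against 3.

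Where an entry lies in the gene annotation bore on whether it could be counted at all, because a read that overlaps exons of more than 1 gene is recorded as ambiguous. In GENCODE 29, used here for positions, 140 of 527 entries lie entirely inside an exon of another gene, and all 140 had 0 counts. Of 350 entries with no exon overlap, 234 also had 0 counts, 116 had at least 1 read and 63 had 10 or more. The single well-counted entry with partial overlap was SNORA53, of which 10.4% is covered. U8 (SNORD118), needed for the maturation of the large ribosomal subunit RNAs, lies inside an exon of TMEM107, and U13 (SNORD13) inside one of TTI2. Both were at 0 in every library. Whether the overlap left them at 0 was not tested, and the release behind the counts may differ. A 0 for these entries is therefore not read as a level. Mature snoRNA and unspliced host RNA that runs across the entry are also counted alike, so these counts do not separate the one from the other.

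Of the 64 entries with 10 or more counts, 63 had a higher mean CPM in shRNF20, against 51.9% of all 21773 genes with as many counts. In 44 entries every shRNF20 library was above every shControl library, which held for 30.4% of those genes, and in 1 entry, SNORA70, every shRNF20 library was below, which held for 26.3%. The remaining 19 overlapped. The 44 comprise 19 SNORA and 25 SNORD entries, so the direction was common to both classes. No shControl library had a read of 9 of the 64 entries: SNORD15B, SNORD69, SNORD91B, SNORA9B, SNORA38B, SNORA28, SNORA53, SNORA22B and SNORA47. The same held for 0.739% of the 21773 genes, but these were not matched for count level. The median summed count of the 64 was 26, and a count of 0 is likelier where counts are low. None of the 64 was at 0 in all 3 shRNF20 libraries.

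**Figure D2:**
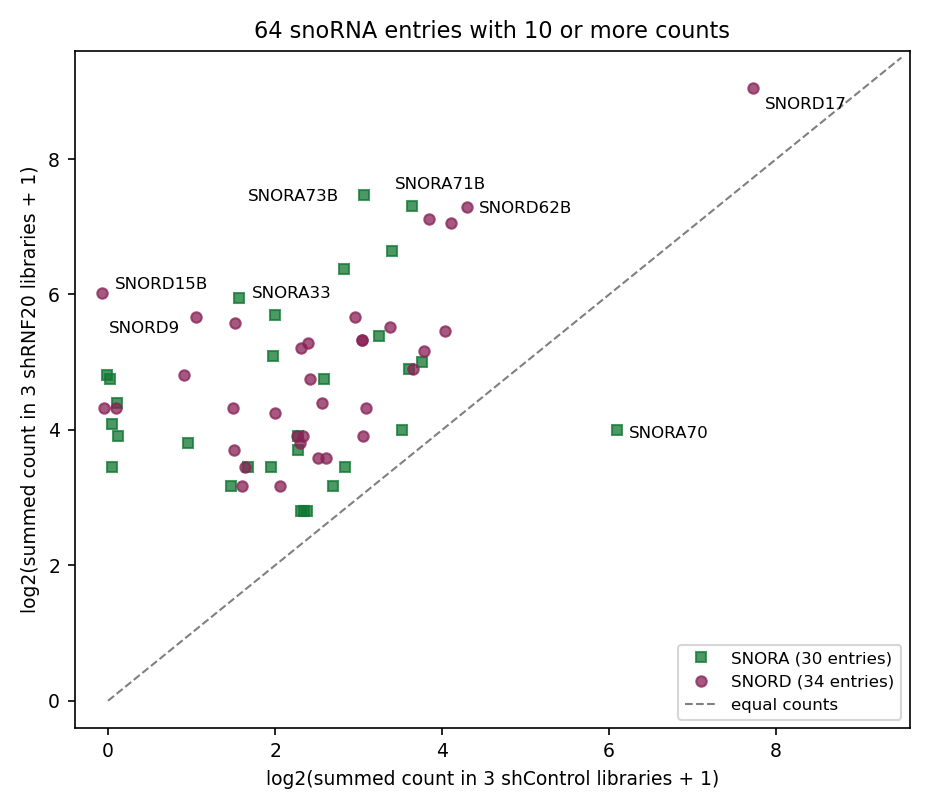
Summed counts of the 64 snoRNA entries with 10 or more counts, in the 3 shControl libraries (horizontal axis) and the 3 shRNF20 libraries (vertical axis), on a log2(sum + 1) scale, with points shifted slightly sideways to keep them apart. Squares are SNORA and circles SNORD entries, the dashed line marks equal counts, and 63 of the 64 points lie above it, with SNORA70 alone below.

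The sequences of the entries with the most counts in each class are shown with the only entry that fell, SNORA70, which was picked after its values were seen. They are gene sequences on the transcribed strand, 5′ to 3′, from GENCODE 29 (GRCh38). Capitals mark box motifs found by a search of these letters: in SNORD entries TGATGA within the first 20 bases (box C) and CTGA within the last 20 (box D), in SNORA entries ANANNA in the middle of the entry (box H) and ACA ending 3 bases before the 3′ end.
SNORD17: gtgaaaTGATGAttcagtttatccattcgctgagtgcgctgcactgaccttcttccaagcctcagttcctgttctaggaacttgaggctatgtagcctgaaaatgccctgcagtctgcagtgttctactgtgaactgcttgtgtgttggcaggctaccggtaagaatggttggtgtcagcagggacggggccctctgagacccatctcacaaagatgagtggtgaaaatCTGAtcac
SNORD62B: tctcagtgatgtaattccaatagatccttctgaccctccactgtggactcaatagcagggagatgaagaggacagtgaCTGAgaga
SNORA73B: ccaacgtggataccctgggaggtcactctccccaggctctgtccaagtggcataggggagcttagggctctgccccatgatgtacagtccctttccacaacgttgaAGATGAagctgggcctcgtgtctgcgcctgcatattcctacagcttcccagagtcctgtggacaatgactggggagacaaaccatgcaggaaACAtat
SNORA71B: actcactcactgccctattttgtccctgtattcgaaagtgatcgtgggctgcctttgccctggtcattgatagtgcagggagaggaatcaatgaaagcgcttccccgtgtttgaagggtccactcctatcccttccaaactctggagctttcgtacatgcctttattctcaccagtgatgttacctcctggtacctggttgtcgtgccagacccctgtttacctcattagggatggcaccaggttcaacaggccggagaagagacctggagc
SNORA70: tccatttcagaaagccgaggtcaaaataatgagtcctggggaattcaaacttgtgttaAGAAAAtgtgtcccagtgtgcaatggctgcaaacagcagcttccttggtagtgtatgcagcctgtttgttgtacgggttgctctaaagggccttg
SNORD17 holds both box C and box D by this search, SNORD62B only box D, SNORA73B both H and ACA, SNORA70 only the H box letters and SNORA71B neither. Both motifs were found in 63.4% of all 314 SNORD entries and in 55.9% of the 34 with 10 or more counts. For SNORA the shares were 61.5% of 213 and 66.7% of 30. The boxes are short and allow other letters, so a missing match says only that these letters are not in these windows.

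The box C/D entry with the most reads was SNORD17 (chr20:17962710-17962946, minus strand, GRCh38), which guides methylation of 28S ribosomal RNA. It had 86, 52 and 76 counts in shControl and 174, 140 and 215 in shRNF20, with no overlap. It rose by 1.33 on the log2 scale (SE 0.21, edgeR adjusted p = 7.94e-04). SNORD17 was the only tested entry that reached the count filter in every library of both groups. Another 18 passed only through their shRNF20 libraries and SNORA70 only through shControl, so their p-values, here and below, come from entries that had to differ to be tested. With no filter, 19 of the 20 were called in the same direction, SNORD3B-2 being the exception. That fit used the same counts of the same selected entries, so it does not remove the selection. SNORD17 alone supplied much of the shControl signal, and without it the snoRNA share went from 5.71 ± 0.69 to 31.6 ± 1.64 CPM (SD, n = 3), a ratio of 5.53 in place of 4.56.

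SNORD62B (chr9:131490486-131490571, plus strand) lies in an intron of PRRC2B. Its counts were 10, 3 and 7 in shControl and 65, 43 and 48 in shRNF20, a rise of 2.99 (SE 0.39, edgeR adjusted p = 3.13e-04). Its neighbour in the same gene, SNORD62A, had 1, 2 and 1 counts against 6, 15 and 17. SNORD94, which guides methylation of the spliceosomal U6 RNA, had 4, 7 and 2 counts against 45, 39 and 53 and rose by 3.39 (SE 0.40). Each of these 3 entries was higher in every shRNF20 library than in any shControl library. SNORD14A, a guide for 18S ribosomal RNA in RPS13, had 3, 5 and 7 counts against 39, 43 and 50 (log2 change 3.13, SE 0.39). SNORD6, in TAF1D, had 6, 5 and 4 counts against 17, 13 and 13 and rose less, by 1.54 (SE 0.38, edgeR adjusted p = 0.00834).

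SNORD15B, a guide for 28S ribosomal RNA in RPS3, was not seen in shControl, with 0 counts in each library, and had 24, 18 and 22 counts in shRNF20. Set against a floor of 3 counts over the shControl group, it was at least 22.03-fold higher. The other 8 entries at 0 in shControl had lower bounds from 3.44-fold (SNORA47) to 9.29-fold (SNORA9B). SNORD9, in CHD8, came close to the same pattern with 0, 1 and 0 counts against 16, 17 and 17, a CPM ratio of 51.6 whose counting interval runs from 8.85 to 2080. SNORD12C, in ZFAS1, had 1, 1 and 0 counts against 11, 18 and 18 (ratio 24.3, interval 6.35 to 206). With so few control reads, the size of these ratios is loosely bounded while their direction is shared by every library.

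Among the box H/ACA entries, SNORA73B (chr1:28508559-28508762, plus strand) had the most reads. It is a copy of U17, which acts in the cleavage that frees 18S ribosomal RNA. Its counts were 5, 2 and 1 in shControl and 57, 50 and 69 in shRNF20, so that it rose by 4.44 (SE 0.41, edgeR adjusted p = 5.29e-05). The ratio of the group sums, each over its gene counts, was 22.7 with a 95% counting interval of 11.3 to 53.4. SNORA71B (chr20:38425083-38425354, minus strand) lies in SNHG17 and had 10, 2 and 0 counts against 61, 45 and 52. It rose by 3.75 with a wide error (SE 0.63, edgeR adjusted p = 0.00118), the 3 shControl libraries being far apart.

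SNORA14B, in TOMM20, had 6, 1 and 2 counts against 43, 28 and 28 (log2 change 3.46, SE 0.50). SNORA66, in the ribosomal protein gene RPL5, had 1, 2 and 3 counts against 23, 25 and 34 (log2 change 3.72, SE 0.46). SNORA33, in RPS12, had 1, 0 and 1 counts against 23, 14 and 24, a CPM ratio of 31.5 with an interval of 8.35 to 266. All 3 entries were separate between the groups. SNORA65, in RPL12, was as distinct, with 2, 1 and 0 counts against 24, 13 and 14 and a ratio of 17.6 (interval 5.68 to 87.9).

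SNORA70 (ENSG00000251893.2, chr12:75689152-75689304, minus strand) was the exception. It had 21, 29 and 22 counts in shControl and 7, 7 and 1 in shRNF20, without overlap, and fell by 2.19 on the log2 scale (SE 0.56, edgeR adjusted p = 0.00912). The symbol is shared by 27 entries at different places, of which 23 had 0 counts, 3 had 1 to 9 and only this one had 10 or more. It lies in an intron of a lincRNA gene, ENSG00000258077, which had 51, 79 and 66 counts against 22, 19 and 43 and fell by 1.23 (SE 0.34, edgeR adjusted p = 0.0137). The lincRNA's call was lost without shRNF20 replicate 1 or 2.

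In the edgeR fit over all genes, 20 of the 528 snoRNA entries had enough counts to be tested. Of these 19 rose and 1 fell, where 28.7% of all 15797 genes tested rose and 29.8% fell. Nothing is read from that count, since 19 of the 20 reached the filter through 1 group only. With no filter on low counts, 123 entries were tested, of which 35 (28.5%) rose and 1 (0.813%) fell, against 14.7% and 16.7% of 32933 genes. All 36 calls were among the 64 entries with 10 or more counts.

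U3, the snoRNA of pre-ribosomal cleavage, is made from genes of its own, and its copy SNORD3B-2 had 8, 1 and 3 counts against 11, 10 and 14. It rose by 1.56 (SE 0.55, edgeR adjusted p = 0.0373), a call that was lost with DESeq2 (adjusted p = 0.0937), without the filter (0.0602) and when any library other than shControl replicate 1 was left out. Another copy, SNORD3A, had 2, 2 and 3 counts against 7, 3 and 4. U3 copies are nearly identical and reads that map to several places are not counted, so both may be underestimates. The genes counted are 791 bases (SNORD3B-2) and 699 bases (SNORD3A) long. Which part of them the reads came from was not examined, so these counts need not be of mature U3. Among the tested entries only SNORD3B-2 had no host by position. SNORD17 has 2, SNX5 and OVOL2, of which OVOL2 had 9 counts in all.

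The remaining tested entries were SNORD83A with 7 shControl against 50 shRNF20 counts, SNORD91A with 9 against 45, SNORD19C with 7 against 39 and SNORD101 with 4 against 36, each of which rose. Per kilobase of gene, the order of levels differed between the groups. In shControl SNORD17 stood at 11.5 CPM per kilobase, SNORA70 at 6.08, SNORD62B at 2.93 and SNORD6 at 2.61, with SNORA73B at 0.475. In shRNF20 SNORD17 was still first at 28.98, followed by SNORD62B at 23.8, SNORD14A at 19.1, SNORD94 at 13.1 and SNORA73B at 11.3, and SNORA70 stood at 1.36.

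Host by position, meaning a gene on the same strand whose span holds the entry, was found for 61 of the 64 entries with 10 or more counts (95.3%) and for 435 of 527 entries in all (82.5%). The median length of well-counted entries was close to that of entries at 0 within each class, at 136.5 against 133 bases for SNORA and 86 against 80 for SNORD. In 5 genes more than 1 well-counted entry shares the host: RPS12 and GNL3 hold 3 each, and PRRC2B, TSR1 and KANSL2 hold a pair each. Entries in 1 host are not independent of each other. Within RPS12 the counts were 2 against 61 for SNORA33, 2 against 19 for SNORD100 and 4 against 36 for SNORD101, and within GNL3 they were 7 against 39 for SNORD19C, 3 against 18 for SNORD19 and 0 against 19 for SNORD69.

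Of 56 entries with exactly 1 host on the strand and a tested host, 55 were higher in shRNF20. They divided into 21 whose host rose, 17 whose host fell and 17 whose host did not pass. The 1 lower entry, SNORA70, had a host that fell. Of all genes tested, 28.7% rose and 29.8% fell. With nearly all entries higher, this split cannot show whether their direction depends on that of the host. The snoRNA change (log2 ratio of the group sums, each over its gene counts) was above the host's log2 fold change in 54 of the 56. The exceptions were SNORA70 and SNORA2B, which had 4 against 6 counts in a host, KANSL2, that rose by 0.90. The median snoRNA change was 2.40, with entries at 0 in shControl held at their lower bound, and the median change of the host over the same pairs was 0.08. By host call, the snoRNA median was 2.75 where the host rose, 2.29 where it fell and 2.05 where it did not pass. Across these 56 pairs Pearson's r was 0.23, given as a description because pairs share libraries and some share a host.

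Several pairs moved in opposite directions. RPL12, a ribosomal protein gene, fell from 795 ± 45.9 to 495 ± 10.8 CPM (log2 change -0.68, SE 0.07, edgeR adjusted p = 8.79e-05), while SNORA65 in its intron went from 3 to 51 counts. RPL3 fell by 0.50 (SE 0.07) while SNORD83A rose by 2.78 (SE 0.73). PRRC2B, the host of SNORD62B, fell from 256 ± 16.9 to 172 ± 3.97 CPM (log2 change -0.58). RPS3, the host of SNORD15B, fell by only 0.19 (SE 0.07, edgeR adjusted p = 0.0354), and RPS12 by 0.22 (0.0202). Both calls were lost when any 1 shRNF20 library was left out, and that of RPS3 also without shControl replicate 3, with upper quartile scaling, with summed strand columns and with a replicate block.

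Other pairs moved together. TOMM20, a subunit of the mitochondrial import pore that holds SNORA14B, rose by 0.52 (SE 0.06) and PTCD3, which holds SNORD94, by 0.56 (SE 0.07). SNX5, a sorting nexin that spans SNORD17, went from 114 ± 8.37 to 203 ± 3.48 CPM and rose by 0.84 (SE 0.07). ZFAS1, a noncoding host, rose by 0.80 (SE 0.19) with SNORD12C. RPL5 rose by 0.33 (SE 0.07) with SNORA66, and TSR1, a ribosome maturation factor, by 0.38 (SE 0.09) with SNORD91A. CHD8 (0.09), TAF1D (0.18) and GNL3 (-0.12) did not pass. RPS13 rose by 0.18 (edgeR adjusted p = 0.0443), a call that was lost when any library other than shControl replicate 3 was left out, with RLE scaling, without the filter, without mitochondrial genes and with a replicate block.

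In all, the 64 entries have 58 distinct hosts, of which 54 were tested, 22 rose and 16 fell. Called hosts were 70.4% of those tested against 58.4% of all genes, with a median log2 change of 0.15. The 9 ribosomal protein hosts divided into 4 that rose, RPL5 among them, and 5 that fell, RPL12 and RPL3 among them. Thus 100% were called, against 58.4% of all genes. The calls of RPS3, RPS12 and RPS13 were lost under alternatives given above.

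The long noncoding hosts, the SNHG genes with GAS5 and EPB41L4A-AS1, changed one by one in both directions. Of 30, 22 were tested, 8 rose, 9 fell and 5 did not pass. Called hosts were thus 77.3% of those tested against 58.4% of all genes, and their median log2 change was 0.06 against -0.01 for all genes. Only 4 changed at least 2-fold, namely SNHG17, SNHG20 and SNHG15 upward and SNHG8 downward. The other 8 hosts had 2 to 48 counts over the 6 libraries and were not tested.

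SNHG17 (chr20:38420588-38435353, minus strand), the host of the SNORA71 family, had 913, 782 and 583 counts in shControl and 2855, 2425 and 2820 in shRNF20. It went from 28.9 ± 3.50 to 106 ± 6.28 CPM (SD, n = 3) and rose by 1.88 (SE 0.10, edgeR adjusted p = 8.37e-06). SNHG8 (chr4:118278709-118279823, plus strand), which holds SNORA24, went the other way, with 1252, 1257 and 1044 counts against 339, 287 and 391. It fell from 45.5 ± 3.72 to 13.3 ± 0.41 CPM (log2 change -1.78, SE 0.10, edgeR adjusted p = 8.37e-06). In both genes the groups were far apart compared with the spread within them.

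These 2 hosts had the smallest p in each direction, and their promoters are printed for comparison: 250 bases before to 50 bases after the start, from RefSeq (GRCh38.p14), at chr20:38435279-38435578 (minus strand) and chr4:118278512-118278811 (plus strand).
SNHG17 promoter: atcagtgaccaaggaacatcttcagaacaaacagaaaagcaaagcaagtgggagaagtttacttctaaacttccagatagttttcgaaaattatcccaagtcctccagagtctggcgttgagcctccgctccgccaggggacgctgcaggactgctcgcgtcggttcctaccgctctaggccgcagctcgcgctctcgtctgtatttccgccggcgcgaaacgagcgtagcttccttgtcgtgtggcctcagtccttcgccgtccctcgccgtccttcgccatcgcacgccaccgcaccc
SNHG8 promoter: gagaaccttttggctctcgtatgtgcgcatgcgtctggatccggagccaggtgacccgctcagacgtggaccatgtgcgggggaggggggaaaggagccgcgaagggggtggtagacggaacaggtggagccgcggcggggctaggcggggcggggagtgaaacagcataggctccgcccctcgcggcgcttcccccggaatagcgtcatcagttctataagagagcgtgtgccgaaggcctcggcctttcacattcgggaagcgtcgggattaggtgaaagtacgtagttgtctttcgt
Many snoRNA host genes are known to start their transcripts within a run of pyrimidines, the terminal oligopyrimidine tract that ties translation to growth signals. The letters CTTTT, searched on the transcribed strand within 10 bases of the start, and the E-box CACGTG, which reads the same on both strands, were absent from both promoters. CTTTT was found in 5 of 26 host promoters in the table (19.2%) against 3.13% of all 35116 promoters: SNHG19, SNHG29 and SNHG32, which fell, and SNHG16 and SNHG5, which did not pass. None of the 7 hosts that rose and were in the table held it. Other runs of pyrimidines were not searched, so a missing match does not show that a host lacks such a tract. CACGTG was found in 2 of the 26 (7.69%) against 7.26% of all promoters.

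SNHG15, which holds SNORA9, had 498, 365 and 272 counts in shControl and 814, 771 and 851 in shRNF20 and rose by 1.16 (SE 0.15, edgeR adjusted p = 2.38e-04). SNHG20, a host gene by name with no snoRNA entry in its span, had 59, 30 and 46 counts against 134, 98 and 119 (log2 change 1.42, SE 0.25). SNHG1, the host of a run of box C/D snoRNAs that includes SNORD22 and SNORD25 to SNORD28, had 1753, 1230 and 1221 counts against 2098, 1756 and 2163. It rose by 0.56 (SE 0.09, edgeR adjusted p = 8.44e-04), with the groups separate in CPM. SNHG4, which holds SNORA74A, rose as much, from 774, 559 and 676 to 1022, 857 and 1021 counts (log2 change 0.57, SE 0.11). SNHG11 rose by 0.84 (SE 0.17), SNHG10 by 0.63 (SE 0.19) and SNHG12 by 0.38 (SE 0.11). The last 2 calls were lost without shRNF20 replicate 1 or 2, and that of SNHG12 also without the filter (adjusted p = 0.0793).

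Among the hosts that fell, SNHG29 was the most abundant. It holds SNORD49A, SNORD49B and SNORD65 and had 5458, 6214 and 4952 counts in shControl and 2913, 2551 and 3419 in shRNF20, a fall of 0.88 on the log2 scale (SE 0.10, edgeR adjusted p = 1.78e-04). SNHG6, which holds SNORD87, had 578, 671 and 555 counts against 350, 248 and 337 and fell by 0.93 (SE 0.14). SNHG7, which holds SNORA17A and SNORA17B, had 1551, 1240 and 1123 counts against 938, 799 and 1072 and fell by 0.44 (SE 0.08). The 3 genes were lower in CPM in every shRNF20 library. SNHG26 fell by 0.96 (SE 0.16), SNHG18 by 0.86 (SE 0.19) and SNHG19 by 0.71 (SE 0.19).

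EPB41L4A-AS1, an antisense transcript that holds SNORA13, had 491, 597 and 469 counts against 350, 313 and 388 and fell by 0.54 (SE 0.14, edgeR adjusted p = 0.00969). When the strand columns were added up its change was -0.23 (adjusted p = 0.144), so the call was not kept under that way of counting. SNHG32 fell by 0.35 (SE 0.13, edgeR adjusted p = 0.0426), a call that several alternatives lost, among them the fit without the filter (0.0624).

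The remaining tested hosts did not pass. GAS5, a growth arrest transcript that is a textbook target of nonsense-mediated decay, had 3885, 4583 and 3826 counts against 4572, 3677 and 4593, with overlapping groups at 158 ± 25.0 and 168 ± 7.32 CPM (SD, n = 3). Its log2 change was 0.09 (SE 0.11, edgeR adjusted p = 0.539), and its sign turned when shControl replicate 1 was left out. SNHG16, the host of the SNORD1 family, had 1778, 1378 and 1283 counts against 1461, 1153 and 1503 (log2 change -0.07, SE 0.08). SNHG3 had 786, 674 and 550 against 743, 636 and 603 (0.04, SE 0.14), and its sign turned under 4 alternatives. SNHG5 stood at 0.51 with a wide error (SE 0.36) and SNHG30 at 0.17 (SE 0.15). An adjusted p above the threshold does not show that these hosts were unchanged.

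Per kilobase of exon, the order of the hosts was altered. In shControl SNHG29 stood at 56.8 CPM per kilobase, SNHG8 at 49.3 and GAS5 at 43.6, and in shRNF20 GAS5 came first at 46.3, then SNHG29 at 30.9 and SNHG17 at 25.4. SNHG17 had stood at 6.90 in shControl, below SNHG6 (18.6), SNHG1 (14.2) and SNHG7 (11.5). SNHG29 and SNHG8 fell between the groups, whereas the levels of GAS5 overlapped.

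**Figure D3:**
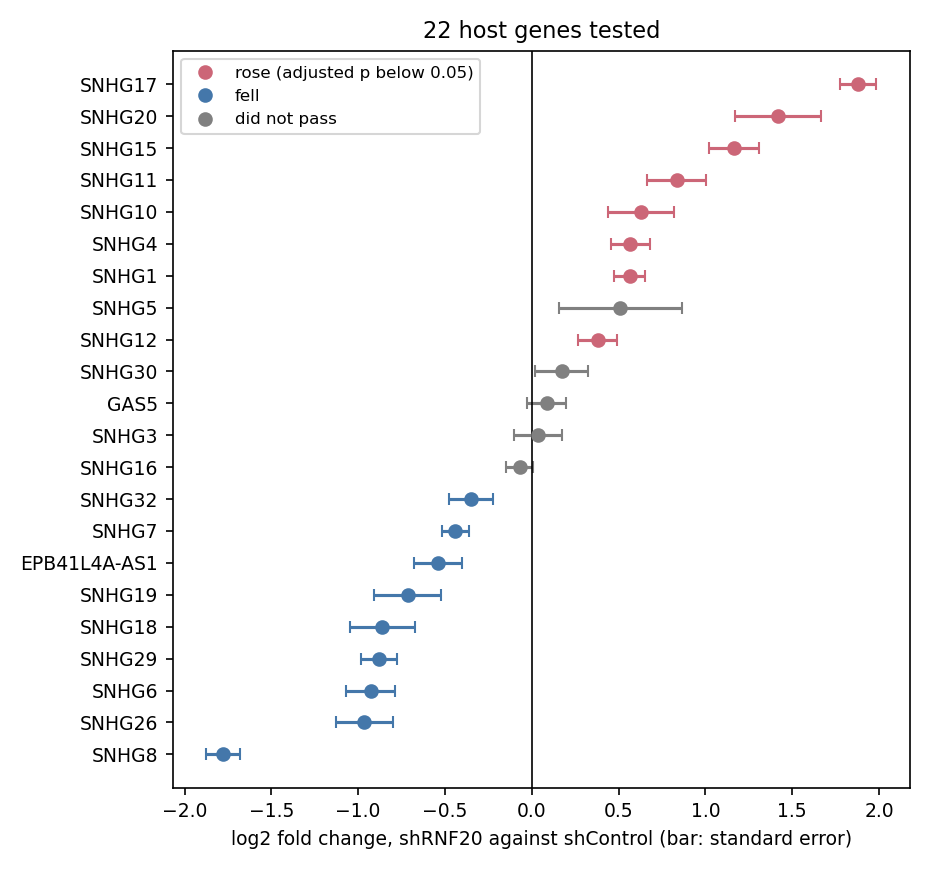
Log2 fold change of the 22 tested host genes, shRNF20 against shControl, with standard errors from edgeR as bars. The 8 hosts that rose reach 1.88 (SNHG17), the 9 that fell reach -1.78 (SNHG8), and 5 lie between without passing an adjusted p of 0.05.

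Few of the snoRNAs inside these hosts could be counted. The spans of 23 of the 30 hosts hold 131 entries, of which 124 had 0 counts, 41 of the 131 lying wholly in annotated exons. The 6 with 10 or more counts were SNORA71B in SNHG17, SNORA73B in SNHG3, SNORA74D in SNHG4, SNORD99 in SNHG12, SNORD93 in SNHG26 and SNORD104 in SNHG25. Their hosts went in both directions. SNORD93 had 2, 0 and 2 counts against 2, 3 and 9 in SNHG26, which fell. SNORD99 had 1, 3 and 1 against 3, 2 and 6 in SNHG12, which rose. The groups overlapped in both entries. SNORA73B went from 8 to 176 in SNHG3, which did not pass. SNORA73B also lies in RCC1, which overlaps SNHG3 on the same strand and fell by 0.30 (SE 0.10, edgeR adjusted p = 0.0325) in a call lost without shControl replicate 1 or 3 or any shRNF20 library.

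The long imprinted transcript SNHG14, from the Prader-Willi region, spans 84 snoRNA entries of the brain-enriched SNORD115 and SNORD116 clusters and their neighbours. SNHG14 had 14 counts in all and its 84 entries had none, although 69 of them lie outside exons. SNHG1 spans 7 entries, 6 of them wholly in exons, and all were at 0 despite 10221 counts of the host. SNORA73A, the other U17 copy, lies inside an exon of SNHG3 and was at 0 as well, next to SNORA73B with 184 counts. No snoRNA entry analysed here lies in the span of GAS5. This does not show that GAS5 holds none, since entries may be missing from the genes analysed.

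The RNAs of the proteins that assemble on snoRNAs changed modestly and unevenly. Protein levels were not measured, and the values here and below are of RNA. Of the 4 box C/D core proteins, NOP56 rose from 142 ± 27.4 to 247 ± 4.89 CPM (SD, n = 3; log2 change 0.80, SE 0.13, edgeR adjusted p = 9.99e-04), NOP58 rose by 0.34 and SNU13 by 0.21. The methyltransferase FBL itself fell from 165 ± 24.6 to 115 ± 0.48 CPM (log2 change -0.52, SE 0.11, edgeR adjusted p = 0.00303). The calls of NOP58 and SNU13 were lost without any single shRNF20 library, that of NOP58 also without shControl replicate 3 and that of SNU13 without the filter. NOP58 is itself the host of SNORD11, which had 5 against 11 counts with overlapping groups.

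Of the 4 box H/ACA core proteins, NOP10 rose from 61.2 ± 0.84 to 103 ± 5.19 CPM (log2 change 0.74, SE 0.07, edgeR adjusted p = 5.93e-05) and GAR1 by 0.41 (SE 0.10). DKC1, the pseudouridine synthase dyskerin, had a log2 change of 0.32 with a wide error (SE 0.18, edgeR adjusted p = 0.152), and NHP2 one of -0.27 (0.0535). DKC1 was called higher without the filter, with a replicate block and without shControl replicate 1, where its change was 0.56. NHP2 was called lower without the filter, with summed strand columns, without mitochondrial genes, with DESeq2 and without shControl replicate 2 or 3. The medians of the C/D and H/ACA lists were 0.28 and 0.36, against -0.01 for all genes tested. The shares called were 100% and 50%, against 58.4%. With 4 genes in each list, nothing is read from these shares.

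Of the 13 genes listed here for assembly and trafficking, 5 rose and 5 fell. Their median was 0.03 (76.9% called, against 58.4% of all genes). NAF1, which loads dyskerin onto nascent H/ACA RNA, fell from 21.9 ± 2.58 to 12.6 ± 0.38 CPM (log2 change -0.80, SE 0.12, edgeR adjusted p = 5.90e-04) and NOP53 fell by 0.56 (SE 0.10). TCOF1, RUVBL1 and PIH1D1 fell too. NUFIP1, ZNHIT3, RPAP3, ZNHIT6 and WRAP53, the last of which guides H/ACA particles to Cajal bodies, rose by 0.23 to 0.56.

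Of 11 factors of nonsense-mediated decay, 4 rose (SMG5, UPF1, SMG9 and SMG8), 2 fell (SMG1 and SMG6) and 5 did not pass (median 0.17), so that the share called, 54.5%, was close to the 58.4% of all genes. SMG1, the kinase that phosphorylates UPF1, fell from 138 ± 19.9 to 69.8 ± 9.56 CPM (log2 change -0.98, SE 0.13, edgeR adjusted p = 3.07e-04). SMG5, an adaptor bound by phosphorylated UPF1, rose by 0.59 (SE 0.08, edgeR adjusted p = 3.00e-04). UPF1 itself went from 227 ± 10.7 to 312 ± 7.56 CPM and rose by 0.46 (SE 0.07).

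Of the 9 genes listed here for intron debranching, snoRNA trimming and RNA decay, 3 rose (DBR1, TENT4B and EXOSC3). Another 3 fell (PARN, XRN1 and MTREX), and the median was 0.00 (66.7% called, against 58.4%). DBR1, which opens the lariat introns from which snoRNAs are cut, rose from 18.1 ± 2.36 to 27.1 ± 0.52 CPM (log2 change 0.58, SE 0.12, edgeR adjusted p = 0.00262). PARN, which removes the short tails of H/ACA precursors, fell from 30.3 ± 1.17 to 21.1 ± 1.02 CPM (log2 change -0.52, SE 0.09, edgeR adjusted p = 0.00143). Over all 41 genes of the 5 lists, 17 rose and 11 fell, so that 68.3% were called against 58.4% of all genes tested, with a median of 0.07. The count that rose dropped to 10 or 11 when any 1 shRNF20 library was left out.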

How the data were processed

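Gene expression was measured by RNA-seq in 6 MDA-MB-231 libraries, 3 shControl and 3 shRNF20. FastQC 0.12.1 and alignment with STAR 2.7.11a to hg38 are named in the submitters' processing notes. The sources used here give no annotation release, trimming or RNA enrichment. The authors deposited raw read counts per gene for each library, of which the column without strand was used. The strand columns were near equal, so a gene and its antisense partner cannot be told apart. Reads over exons of more than 1 gene count as ambiguous, and multimapping reads are not counted, which underestimates near-identical copies. The lines that name no gene (20.9% to 24.1% of reads) stayed out of library sizes and tests.

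Symbols were matched by identifier for 62686 of 62703 genes. Positions, exons, hosts by position and snoRNA sequences came from GENCODE 29 (GRCh38), which holds 58264 genes and 557 of the 558 members and may not be the authors' release. The host PRRC2B was matched by symbol. Promoters came from RefSeq GRCh38.p14, where 26 of the 30 hosts matched. Counts were tested with R 4.3.3 and edgeR 4.0.16 (filterByExpr with a minimum count of 10, TMM scaling, robust quasi-likelihood F-test, Benjamini-Hochberg over all 15797 genes tested, threshold 0.05). "Rose" and "fell" are used of genes past that threshold. CPM means in that fit use TMM library sizes, and the CPM of summed groups of genes and in single libraries use plain gene counts. Ratios of few counts carry exact 95% intervals for counting error only. The labels do not state separate cultures for the replicates. The p-values thus reflect only the spread among these libraries, which may be technical.

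The members, gene lists, motifs and tests were chosen with earlier results of these data known. Counts per library are given for the 12 hosts and 12 snoRNA entries with the most counts and for hosts that changed at least 2-fold; the 8 core proteins, in each other list the 2 members of lowest p and the host of each tested entry are named with values. Further genes named as one of few were chosen after their values were seen. The fit was tested on simulated counts. The alternatives tried were DESeq2 1.42.0, limma-voom (limma 3.58.1), scaling by RLE or upper quartile, no filter or a minimum of 1 CPM in 3 libraries, a replicate block, summed strand columns, mitochondrial genes left out, other count minimums, and each library left out in turn. Some values and 1 sequence are not reported here.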

Additional observations from a re-analysis of the deposited data

How the results depend on the processing

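The counts of host genes that rose (8) and fell (9) stayed within 6 to 9 and 8 to 10 under all alternatives run, libraries left out included. The count of snoRNA entries that rose (19) depended on the filter, at 35 of 123 without one and 6 of 6 under a CPM of at least 1 in 3 libraries, where none fell (0) because SNORA70 was not tested. It was 19 to 23, with 1 that fell, when single libraries were left out, 18 with DESeq2 and 22 with the strand columns summed. The 64 detected entries became 123 at a minimum of 1 count, 29 at a minimum of 30 counts and 51 to 62 without single libraries. The ratio of snoRNA shares (4.56) was 5.53 without SNORD17, the entry with the most counts, and 4.21 to 4.78 without single libraries. List genes that rose (17) numbered 10 to 17 without single libraries, and those that fell (11) 9 to 14. Of 74 named genes under 15 alternatives, 1025 of 1096 comparisons kept direction and side of the threshold, 55 lost and 11 gained a call, and 5 turned sign. The sign changes are those of GAS5, which ranged from -0.054 without shControl replicate 1 to 0.167 without shControl replicate 2, and of SNHG3, which stood at -0.0048 without the filter and ranged from -0.051 without shRNF20 replicate 2 to 0.157 without shRNF20 replicate 3. None of these values passed the threshold, and the cause was not tested. Low counts limit the snoRNA values, most entries having fewer than 10 reads in all.

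Replicate numbers are shared between the groups, and the labels do not say whether same-numbered libraries are paired. Their deviations had correlations of -0.02, 0.03 and 0.03, and those of the other pairs ranged from -0.046 to 0.019. With 3 libraries per group this cannot exclude a pairing. With a replicate block, 8 hosts rose and 8 fell, 19 snoRNA entries rose and 1 fell, and 18 list genes rose and 10 fell.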
